A study of Drosophila melanogaster with 12 samples.

Results

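This comparison set ΔBAH mutAT1 wing discs against ΔBAH wing discs, that is, flies with a transgenic ASH1 that lacked the BAH domain and carried an altered AT hook 1, against flies with a transgenic ASH1 that lacked the BAH domain alone. Its members were the 3 ΔBAH mutAT1 libraries and the 3 ΔBAH libraries, chosen by their labels, out of 12 libraries in the series. Both lines were in the w[1118] background and carried the mutant allele ash1[10] over ash1[22]. The transgene of ΔBAH mutAT1 was labelled EGFP::ASH1 DBAH mut AT1 and that of ΔBAH was labelled EGFP::ASH1 DBAH, both with the pTub promoter and the w+ marker. The other groups were ASH1 WT, with the full-length EGFP::ASH1 transgene and the same ash1 alleles, and wild type, w[1118] without a transgene, with 3 libraries each. RNA came from dissected 3rd instar larval wing discs. All transgenes were driven by the alpha-Tubulin promoter, which is active in most cells, and sat at the same landing site. Of the mutant alleles, ash1[22] carries an early stop and ash1[10] makes a full-length protein with an inactive SET domain, so each transgenic line also kept an endogenous ASH1 with intact AT hooks and BAH domain, and a wild-type maternal contribution was present in the embryo. Each transgenic genotype was 1 line, and other differences between the lines cannot be told apart from the AT hook change.

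ASH1 is a Trithorax group protein, a histone methyltransferase that places methyl groups on lysine 36 of histone H3 and counteracts Polycomb group silencing, for which the Hox genes are the classical targets in imaginal discs. AT hooks are short basic motifs that bind the minor groove of AT-rich DNA, and BAH domains contact nucleosomes. In the altered AT hook 1 the conserved arginines of the R-G-R core were replaced by alanine. The question was whether variants that differ by this hook differ in the genes expressed in the disc.

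Total counts were 35277608, 36837815 and 16706895 in ΔBAH mutAT1 replicates 1, 2 and 3, and 27871145, 16534245 and 15083960 in ΔBAH. The leading digits of the internal sample numbers place the libraries in 3 consecutive series, called library blocks here. ΔBAH mutAT1 had 1 library in each of blocks 1, 2 and 3, whereas ΔBAH had none in block 1, replicate 1 in block 2 and replicates 2 and 3 in block 3. Between the blocks, 5124 of 8346 tested genes (61.4%) had an edgeR adjusted p below 0.05 in the model with genotype. Block was a term in the model, a choice made with earlier results of these data known. The model was fitted to all 12 libraries. The coefficient of variation between replicates was 14.4% with the block term, against 32.0% without it. Blocks 2 and 3 hold both lines. ΔBAH mutAT1 replicate 2 had the fewest detected genes, 8728, against 9018 to 10420 in the other 11 libraries. The wing disc epithelium markers vg, nub, ap, sd, en and pnr were detected in all 6 libraries, with a summed level of 1277 to 1811 CPM in ΔBAH mutAT1 and 1151 to 1924 CPM in ΔBAH.

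Reads over the whole ash1 gene (FBgn0005386, on 3L) sum the endogenous and the transgenic transcript, and counts per gene show neither the BAH deletion nor the AT hook change, so they do not check which variant a line carried. The ash1 level was 342.9, 181.9 and 417 CPM (counts scaled to a common library size) in ΔBAH mutAT1 and 154.5, 447.9 and 388.2 CPM in ΔBAH, against 85.6, 99.1 and 112.2 CPM in wild type. Every transgenic library lay above every wild-type library, and the ranges of ΔBAH mutAT1 and ΔBAH overlapped. The log2 fold change of ΔBAH mutAT1 over ΔBAH was 0.15 with a standard error (SE) of 0.23 (edgeR adjusted p = 0.981). It turned to -0.07 without the library block in edgeR, to -0.03 without block and filter in limma-voom, and to -0.09 without ΔBAH replicate 1, so that no direction can be given.

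Few genes separated the lines. The quasi-likelihood test of edgeR, adjusted by Benjamini-Hochberg, gave 15 of 8346 genes (0.18%) an adjusted p below 0.05, 6 higher (0.0719%) and 9 lower (0.108%) in ΔBAH mutAT1 than in ΔBAH. The genes that rose included the cytochrome P450 gene Cyp6a17, the pseudouridine synthase family gene RluA-1 and the C-type lectin gene lectin-24Db. Those that fell included CG32572, CG15128, the neighbouring genes mthl3 and mthl4 of the methuselah-like receptor family, the glutathione S-transferase gene GstE13 and the ionotropic receptor family pseudogene Ir51a. The median absolute log2 fold change over all genes tested was 0.12, and 95.5% of genes lay within 2-fold. In total 469 genes had an unadjusted p below 0.05 and 115 one below 0.01. DESeq2's Wald test called 47 genes, and limma-voom, which was run without the filter on low counts on 12200 genes, called 14. Without the library block edgeR called 4 genes and limma-voom 4, and edgeR on the 6 libraries alone called 5. Leaving out 1 library at a time gave 3 to 13 genes: 13 without ΔBAH mutAT1 replicate 1, 6 each without its replicates 2 and 3, 4 without ΔBAH replicate 1, 8 without its replicate 2 and 3 without its replicate 3.

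**Figure D1:**
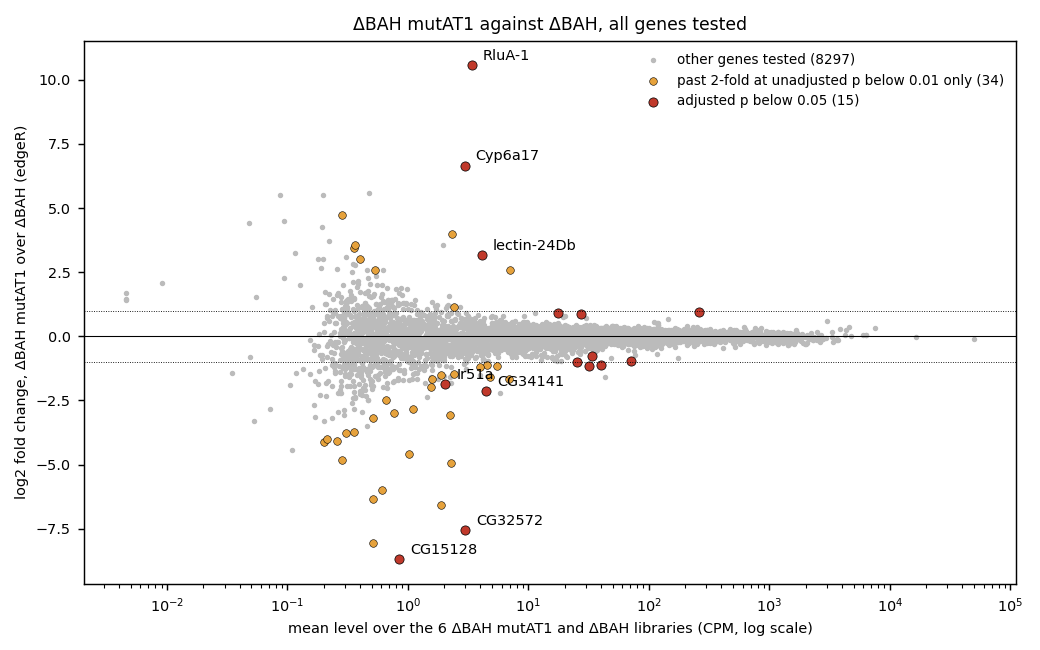
Log2 fold change of ΔBAH mutAT1 over ΔBAH against the mean level over the 6 libraries of both lines, 1 point per tested gene (1 gene at 0 in all 6 libraries is not drawn); dotted lines mark 2-fold. Most genes lie close to 0, the 15 genes at an adjusted p below 0.05 are in red, and the spread is widest below about 1 CPM.

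Cyp6a17, RluA-1 and CG32572 behaved as present in some lines and nearly absent in others. Cyp6a17 (FBgn0015714, 2R), a gene of the P450 family of oxidising enzymes, was at 7.31, 4.34 and 6.03 CPM in ΔBAH mutAT1 and 0.107, 0 and 0 CPM in ΔBAH, from 267, 166 and 101 counts against 3, 0 and 0. The groups did not overlap, and all ΔBAH libraries lay below all other libraries. The pooled ratio was 116-fold (95% exact interval 39.4 to 563, counting error only), with a fitted log2 fold change of 6.65 (SE 0.52, edgeR adjusted p = 0.00017). Cyp6a17 was also low in ASH1 WT, with 5, 7 and 8 counts, and highest in wild type, at 19.6, 18.9 and 19.8 CPM. In the same edgeR fit it was below wild type in ΔBAH mutAT1 (log2 fold change -1.75, adjusted p = 0.0018), in ΔBAH (-8.40) and in ASH1 WT (-5.82), comparisons that share the wild-type libraries.

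CG32572 (FBgn0052572, X) showed the reverse arrangement. It had 3, 0 and 1 counts in ΔBAH mutAT1 and 195, 89 and 80 counts in ΔBAH, or at most 0.082 CPM against 5.35 to 6.98 CPM. The pooled ratio was 140-fold lower in ΔBAH mutAT1 (95% exact interval 54.2 to 516), with a fitted log2 fold change of -7.56 (SE 0.60, edgeR adjusted p = 0.00017). It was at 6.76 to 9.47 CPM in ASH1 WT and at 0.034 to 0.0756 CPM in wild type. ΔBAH mutAT1 thus stood with wild type, and ΔBAH with ASH1 WT. An exon of CG32572 overlaps CG34325, so reads of the genes could not be told apart where the counting did not use strand.

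RluA-1 (FBgn0051719, 2L), of the pseudouridine synthase family of RNA-modifying enzymes, was at 5.09, 6.80 and 8.35 CPM in ΔBAH mutAT1 and had 0 counts in all 3 ΔBAH libraries. Against a floor of 3 counts over the group it was at least 127-fold higher in ΔBAH mutAT1 (edgeR adjusted p = 0.0049). It was at 2.07, 4.74 and 7.73 CPM in ASH1 WT, overlapping ΔBAH mutAT1, and at 5, 1 and 0 counts in wild type. In the same edgeR fit RluA-1 was lower for ΔBAH when set against ASH1 WT (adjusted p = 0.0171). CG15128 (FBgn0034467, 2R) had 0 counts in all 3 ΔBAH mutAT1 libraries and 76, 14 and 23 in ΔBAH, at least 57.9-fold lower in ΔBAH mutAT1 (edgeR adjusted p = 0.0186). It was at 3.75 to 3.87 CPM in ASH1 WT, above ΔBAH at 0.842 to 2.72 CPM, and had at most 2 counts in a wild-type library.

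**Figure D2:**
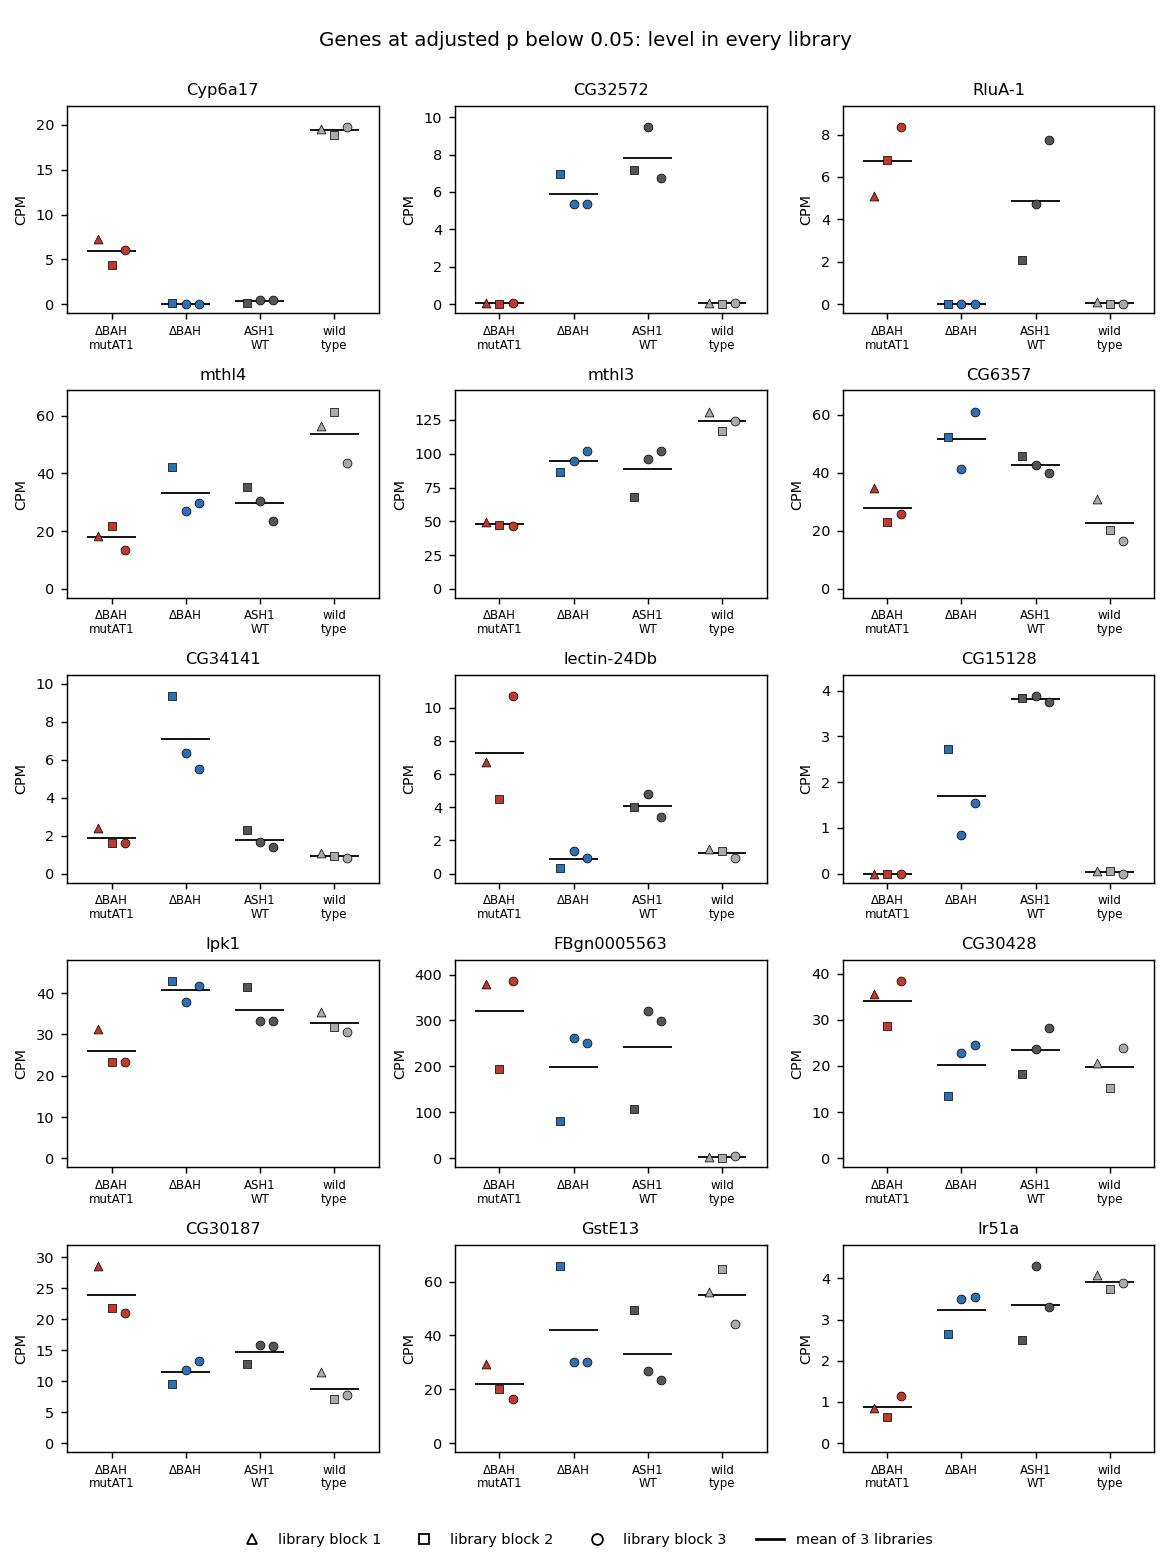
Level (CPM) of the 15 genes at an adjusted p below 0.05 in every library, by genotype, each on a linear axis that includes 0; symbols give the library block and lines the mean of 3 libraries. Cyp6a17, RluA-1, CG32572 and CG15128 have at least 1 line at or near 0, CG34141 stands apart in ΔBAH, and the groups overlap only for FBgn0005563.

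lectin-24Db and CG34141 differed by several fold. lectin-24Db (FBgn0040102, 2L), which encodes a secreted sugar-binding protein, was at 6.73, 4.48 and 10.7 CPM in ΔBAH mutAT1 and 0.322, 1.38 and 0.939 CPM in ΔBAH, a log2 fold change of 3.17 (SE 0.46, edgeR adjusted p = 0.0186). It was at 3.41 to 4.80 CPM in ASH1 WT and 0.924 to 1.46 CPM in wild type, so that ΔBAH overlapped wild type. CG34141 (FBgn0083977, 2R) was at 2.41, 1.60 and 1.61 CPM in ΔBAH mutAT1 and 9.34, 6.37 and 5.50 CPM in ΔBAH, a log2 fold change of -2.15 (SE 0.30, edgeR adjusted p = 0.0155). ΔBAH was above all 9 other libraries, and CG34141 was also higher in ΔBAH than in ASH1 WT (log2 fold change 1.96, edgeR adjusted p = 0.0402).

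The other 9 genes changed by about 2-fold or less, apart from Ir51a. mthl3 (FBgn0028956) and mthl4 (FBgn0034219) encode receptors of the methuselah-like family, a family named after a gene that affects life span. mthl3 was at 49.5, 47.6 and 46.4 CPM in ΔBAH mutAT1 and 86.4, 94.4 and 102 CPM in ΔBAH (log2 fold change -0.97, SE 0.12). mthl4 was at 18.5, 21.7 and 13.4 CPM in ΔBAH mutAT1 and 42.4, 27.1 and 29.7 CPM in ΔBAH (log2 fold change -1.01, SE 0.13, edgeR adjusted p = 0.0096 for both). For both genes the ΔBAH mutAT1 libraries lay below all 9 other libraries, and both were also lower in ΔBAH mutAT1 than in ASH1 WT in the same edgeR fit (adjusted p = 0.0301 and 0.0318). The genes are neighbours and related in sequence, and how reads that fit both were counted is not given in the sources used here. Ir51a (FBgn0033997) was at 0.848, 0.628 and 1.13 CPM in ΔBAH mutAT1 and 2.65, 3.49 and 3.55 CPM in ΔBAH, a log2 fold change of -1.86 (SE 0.31, edgeR adjusted p = 0.0449). It was also below all libraries of the other groups.

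GstE13 (FBgn0033381), a glutathione S-transferase gene, was at 29.5, 20.2 and 16.2 CPM in ΔBAH mutAT1 and 65.9, 30.2 and 30.1 CPM in ΔBAH (log2 fold change -1.14, edgeR adjusted p = 0.0447), and its exons overlap those of CG18659. ΔBAH replicate 1 was well above the level of the other ΔBAH libraries. Ipk1 (FBgn0050295), which encodes an inositol phosphate kinase, was at 31.4, 23.4 and 23.4 CPM in ΔBAH mutAT1 and 42.9, 37.8 and 41.6 CPM in ΔBAH (-0.78, edgeR adjusted p = 0.0195). CG6357 was at 23.1 to 34.8 CPM in ΔBAH mutAT1 and 41.3 to 61.1 CPM in ΔBAH (-1.14). In the upward direction, CG30428 was at 28.6 to 38.4 CPM in ΔBAH mutAT1 and 13.5 to 24.5 CPM in ΔBAH (0.85), and CG30187 at 21.1 to 28.7 CPM in ΔBAH mutAT1 and 9.48 to 13.3 CPM in ΔBAH (0.92). For both genes ΔBAH mutAT1 lay above all 9 other libraries.

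FBgn0005563, an identifier that the annotation used here does not name or place, was at 378.5, 194.5 and 385.6 CPM in ΔBAH mutAT1 and 81.1, 262.6 and 250.3 CPM in ΔBAH (log2 fold change 0.97, SE 0.14, edgeR adjusted p = 0.0195). It was the only gene of the 15 whose groups overlapped. In each line the block 2 library was lowest, and within block 2 and within block 3 the ΔBAH mutAT1 library was the higher one. It was at 106.6 to 320.4 CPM in ASH1 WT and at 1.80 to 5.60 CPM in wild type, so that this feature was counted mainly in the lines with a transgene.

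Of the 15 genes, 14 had groups that did not overlap, whereas 413 of all 8346 tested genes (4.95%) did so. Within block 2 and within block 3, which each hold both lines, all 15 differed in the same direction as in the fit. The fit uses these same differences and the genes were picked by it, so this agreement is no separate support. In 5 of the 15 genes ΔBAH mutAT1 lay outside the range of all 9 other libraries, and in 2, Cyp6a17 and CG34141, ΔBAH did. Over all 8346 tested genes this held for 55 (0.659%) in ΔBAH mutAT1 and 38 (0.455%) in ΔBAH. The 15 genes were picked for a difference between these lines, so these counts are no independent evidence. Across 15 alternative settings no gene of the 15 changed direction. Cyp6a17 and CG32572 stayed below an adjusted p of 0.05 in all 15 settings of edgeR, limma-voom and DESeq2 (highest adjusted p 0.0248 for both), and RluA-1 in 14, with an adjusted p of 0.0899 in edgeR with replicate number in place of library block. The other 12 genes passed in 3 to 9 of the settings. Without ΔBAH replicate 1 and without ΔBAH replicate 3, only these 3 genes of the 15 passed.

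The genes that differed were not spread evenly over the chromosomes. Of the 15 genes, 11 (73.3%) are on 2R, which holds 1577 of the 8346 tested genes (18.9%), namely Cyp6a17, mthl3, mthl4, CG6357, CG34141, CG15128, Ipk1, CG30428, CG30187, GstE13 and Ir51a. Both others with a place on chromosome 2, RluA-1 and lectin-24Db, are on 2L, CG32572 is on X, and none is on 3L, 3R or 4. All transgenes were inserted on 2L. Apart from mthl3 and mthl4, which adjoin each other, the genes are scattered along 2R, with start positions between 9.12 and 25.3 Mb of BDGP6. With looser criteria the share on 2R was smaller. It was 16 of 44 genes (36.4%) past 2-fold at an unadjusted p below 0.01, and 39 of 115 genes (33.9%) at an unadjusted p below 0.01. The arm was noticed after the genes were known, so no test is given.

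**Figure D3:**
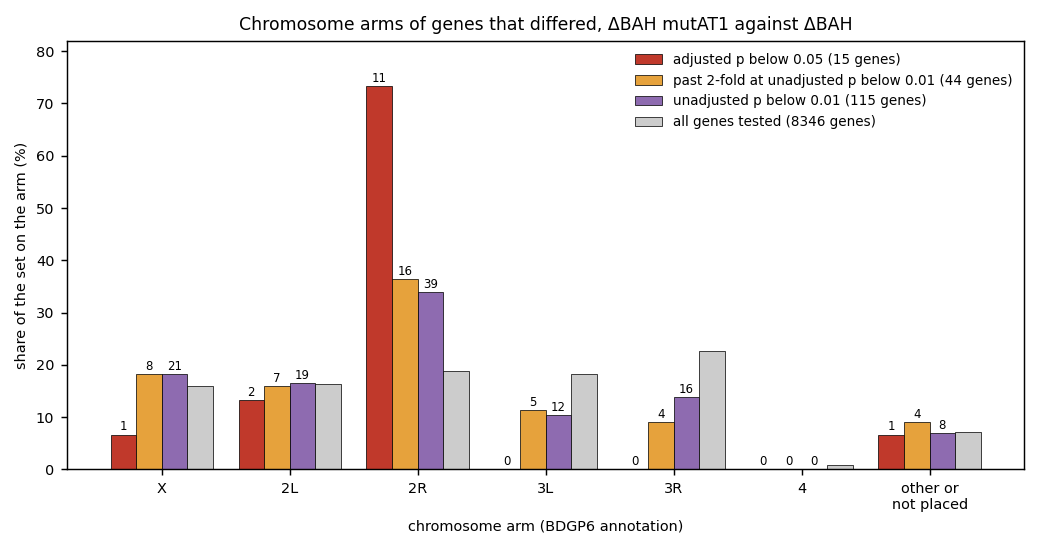
Share (%) of each gene set on each chromosome arm, for genes of 3 criteria and for all genes tested; numbers over the bars are gene counts. On 2R the bars of the 15, 44 and 115 genes reach 73.3%, 36.4% and 33.9%, against 18.9% of all genes tested.

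The 2R share also depended on the setting. It was 11 of 15 with RLE size factors, 23 of 47 with DESeq2, 9 of 14 with limma-voom on unfiltered genes, 9 of 13 in blocks 2 and 3 alone, 2 of 5 in the 6 libraries alone and 2 of 4 without the library block. Leaving out 1 library gave 9 of 13 (ΔBAH mutAT1 replicate 1), 3 of 6 (replicate 2) and 2 of 6 (replicate 3), and 1 of 4 (ΔBAH replicate 1), 5 of 8 (replicate 2) and 1 of 3 (replicate 3). In comparisons that share these libraries, the genes on 2R were 115 of 536 for ΔBAH mutAT1 against wild type, 114 of 522 for ΔBAH against wild type, 4 of 6 for ΔBAH mutAT1 against ASH1 WT, and 1 of 3 for ΔBAH against ASH1 WT. At an unadjusted p below 0.01 the share on 2R was 29 of 86 genes (33.7%) for ΔBAH against ASH1 WT and 39 of 160 (24.4%) for ΔBAH mutAT1 against ASH1 WT, beside the 33.9% of ΔBAH mutAT1 against ΔBAH.

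The study's gene classes used a change past 2-fold in mean level and p below 0.01 before adjustment, with short and lowly expressed genes removed. Its supplement used a lower fold threshold for this comparison. With 2-fold and 0.01 applied to the edgeR fit and filter used here, 44 genes (0.527%) differed, 11 higher (0.132%) and 33 lower (0.395%) in ΔBAH mutAT1. Of these, 10 also had an adjusted p below 0.05, and 14 had fewer than 100 counts over the 6 libraries. Groups did not overlap for 34 of the 44, beside 413 of all 8346 tested genes (4.95%). The 44 were picked for a difference between these same libraries, so the lack of overlap is no separate support. The next genes by p, named here after their values were seen, were swi2 and NT5E-2, both with exons that overlap another gene (HPS4 and CG43110). swi2 had 0.192, 0 and 0 CPM in ΔBAH mutAT1, against 6.55, 2.23 and 2.28 CPM in ΔBAH, from 7 against 254 counts, a pooled ratio of 55.8-fold (95% exact interval 26.7 to 140, edgeR adjusted p = 0.0716). NT5E-2 had 1 count in ΔBAH mutAT1 and 68 in ΔBAH (edgeR adjusted p = 0.0825). Both are on 2R. Of the genes with higher values, ry, which encodes xanthine dehydrogenase, was at 0.794, 0.837 and 0.418 CPM in ΔBAH mutAT1 and at most 0.0716 CPM in ΔBAH, from 68 against 3 counts (14.7-fold, 95% exact interval 4.83 to 73.2, edgeR adjusted p = 0.486).

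The study's text names 8 features for this comparison (Ada1-1, chinmo, eater, Ir51a, Nplp4, Pde1c, RNaseMRP:RNA and Tsp42Ej), and 5 more (CG9903, CG15080, Marf1, CG30099 and FBgn0067709) were taken here from the same class of its supplementary gene list. These features are a part of that class, not all of it. The class was defined on these same libraries, so the direction is no independent evidence. All 12 that were tested had lower fitted values in ΔBAH mutAT1, and only Ir51a had an edgeR adjusted p below 0.05. The p-values that the study's text gives for this class are unadjusted, so the thresholds are unlike. The study also ran qPCR on selected genes and compared its genes with published data of ash1 null mutants, neither of which was used here. Past 2-fold at an unadjusted edgeR p below 0.01 were Ir51a, Marf1, Pde1c, CG9903, CG15080, CG30099 and Ada1-1. For chinmo the unadjusted edgeR p was 0.0024, at a change of less than 2-fold. chinmo (FBgn0086758), a BTB zinc finger gene that governs temporal and male identity, was at 11.5, 8.58 and 11.1 CPM in ΔBAH mutAT1 and 17.1, 20.9 and 25.2 CPM in ΔBAH. The groups did not overlap, and the log2 fold change was -0.85 (SE 0.22, edgeR adjusted p = 0.429, and 0.0432 in DESeq2's). ASH1 WT at 8.08 to 18.8 CPM overlapped both ΔBAH mutAT1 and ΔBAH. Wild type at 6.39 to 13.9 CPM overlapped ΔBAH mutAT1 and lay below ΔBAH. Ada1-1 (FBgn0051865), which encodes a subunit of the SAGA histone acetyltransferase complex, had 5, 0 and 1 counts in ΔBAH mutAT1 and 17, 7 and 9 in ΔBAH. That was 8.46-fold lower in pooled counts (95% exact interval 3.50 to 24.7, edgeR adjusted p = 0.476), and its exons overlap CG18787.

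CG9903 (FBgn0030756) had 1, 0 and 0 counts in ΔBAH mutAT1 and 3, 36 and 20 in ΔBAH, a pooled ratio of 90.7-fold (95% exact interval 15.7 to 3644) with an adjusted p of 0.359 in edgeR's test. Its level in ASH1 WT, 0.677 to 1.19 CPM, and in wild type, 0.554 to 1.26 CPM, lay above all ΔBAH mutAT1 libraries. Pde1c (FBgn0259225), a cyclic nucleotide phosphodiesterase gene, was at 3.75, 1.28 and 3.16 CPM in ΔBAH mutAT1 and 4.01, 5.23 and 6.57 CPM in ΔBAH (log2 fold change -1.21, edgeR adjusted p = 0.19). Marf1 (FBgn0039972), named for the meiotic arrest regulator of mammals, was at 2.79, 2.41 and 3.64 CPM in ΔBAH mutAT1 and 5.72, 6.56 and 5.97 CPM in ΔBAH (-1.13, edgeR adjusted p = 0.19). CG15080 (FBgn0034391) was at 2.36 to 3.64 CPM in ΔBAH mutAT1 and 6.37 to 10.3 CPM in ΔBAH (-1.17, edgeR adjusted p = 0.372). For Marf1 and CG15080 the ΔBAH mutAT1 libraries lay below all 9 others.

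CG30099 (FBgn0050099) was at 0.684, 1.86 and 0.597 CPM in ΔBAH mutAT1 and 3.61, 2.41 and 2.21 CPM in ΔBAH (-1.52, edgeR adjusted p = 0.466), and eater (FBgn0243514), a phagocytic receptor of hemocytes, at 1.53, 0.68 and 1.37 CPM in ΔBAH mutAT1 and 1.90, 2.65 and 2.75 CPM in ΔBAH (-1.12, edgeR adjusted p = 0.816). Neither group pair overlapped, and eater was below all 9 other libraries in ΔBAH mutAT1.

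The groups overlapped for Nplp4, a neuropeptide-like precursor gene, for the RNA of ribonuclease MRP (RNaseMRP:RNA) and for the tetraspanin gene Tsp42Ej. In each of these the lowest value was in ΔBAH mutAT1 replicate 2, the library with the fewest detected genes. Tsp42Ej had 3.07, 0.079 and 1.49 CPM in ΔBAH mutAT1 and 2.79, 2.71 and 3.49 CPM in ΔBAH (log2 fold change -1.83), and -0.89 without that library. Nplp4 had 1.45, 0.209 and 1.01 CPM in ΔBAH mutAT1 and 5.94, 1.02 and 1.07 CPM in ΔBAH (-1.68), and -0.58 without it. RNaseMRP:RNA had 25, 0 and 13 counts in ΔBAH mutAT1 and 15, 24 and 11 in ΔBAH (-1.34), and -0.48 without it. FBgn0067709 had 1 count in ΔBAH mutAT1 and 6 in ΔBAH over 3 libraries each and was below the filter.

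**Figure D4:**
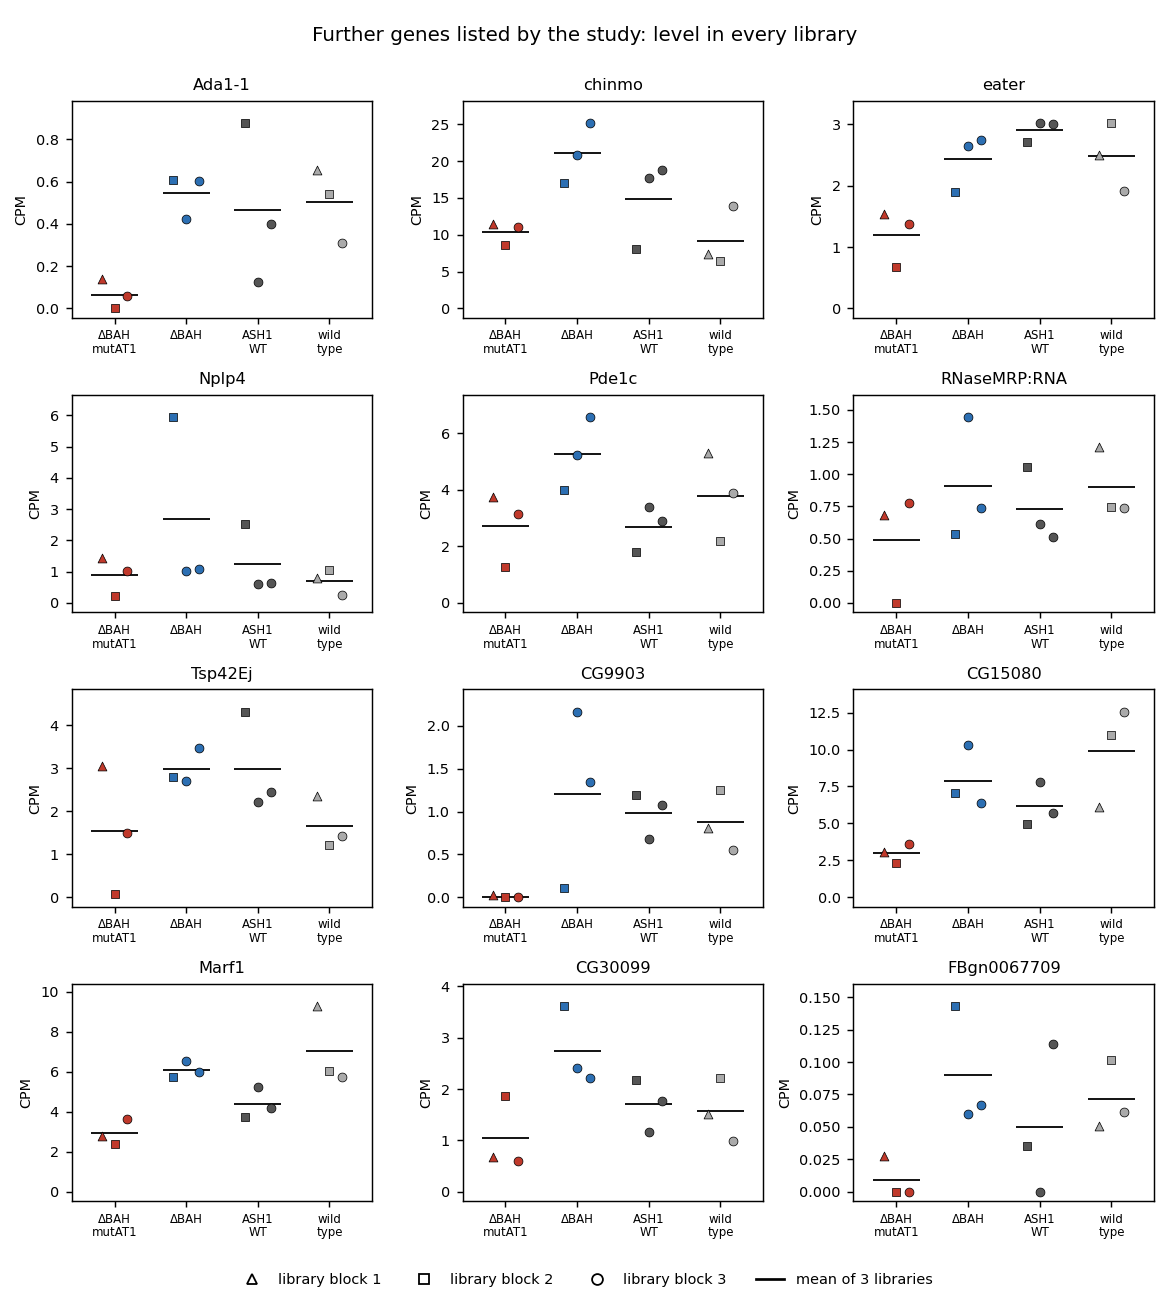
Level (CPM) of the 12 further features listed by the study in every library, by genotype, each on a linear axis that includes 0; symbols give the library block and lines the mean of 3 libraries. ΔBAH mutAT1 lies below ΔBAH without overlap for all but Nplp4, RNaseMRP:RNA and Tsp42Ej, where the square of ΔBAH mutAT1, its block 2 library, is the lowest of that line.

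No member of the regulator or marker lists passed the test. Over 9 lists of regulators and 9 of cell type markers, 0 of 221 distinct genes tested had an edgeR adjusted p below 0.05, beside 0.18% of all genes. At an unadjusted p below 0.05 there were 17 (7.69%), beside 5.62% of all genes. These were 10 of 163 regulators (6.13%) and 7 of 64 markers (10.9%). limma-voom on unfiltered genes called 0, beside 14 of all 12200 genes. DESeq2 called 3 of 221 (chinmo, Mef2 and Mmp1, all lower in ΔBAH mutAT1), beside 47 of all 8346 genes. Fold changes here are adjusted for library block, and for 57 of 221 list members their sign goes against the difference of the plain group means, as it does for 2081 of 8346 tested genes (24.9%) and for 0 of the 15 called. Without the block the median of 8 of the 18 lists changes sign, beside a median over all genes of 0.00, so that no direction is given for these lists.

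Among the Hox genes, 4 of 8 were abundant enough to test, with a median log2 fold change of -0.24, and 0.19 without the library block. Antp, which specifies the second thoracic segment that bears the wing disc, was at 109.5, 103.1 and 119.8 CPM in ΔBAH mutAT1 and 119.4, 135.7 and 141.5 CPM in ΔBAH (-0.21, SE 0.12). Ubx, which specifies the haltere disc, was at 13.98, 7.43 and 10.7 CPM in ΔBAH mutAT1 and 8.26, 8.96 and 9.65 CPM in ΔBAH, with overlapping groups. Its fitted value was -0.26, although its mean was higher in ΔBAH mutAT1, at 10.7 CPM, than in ΔBAH, at 8.96 CPM. lab and Scr were under 1.5 CPM in each of the 6 libraries, with log2 fold changes of 0.85 and -0.66, and the mean of Scr was 0.91 CPM in ΔBAH mutAT1 and 0.828 CPM in ΔBAH, against the sign of its fit.

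The 42 wing patterning genes tested had a median log2 fold change of 0.02 and lay between -0.37 and 0.32, beside a median of 0.02 over all genes tested. Without the block the medians were -0.10 for patterning genes, -0.11 for Polycomb group genes and -0.14 for Trithorax group genes. They include hth, a hinge and body wall selector, at 928.1, 876.5 and 1297 CPM in ΔBAH mutAT1 and 1244, 1240 and 1398 CPM in ΔBAH (-0.25), the hedgehog effector ci (0.04), the Dpp receptor gene tkv (0.15) and the receptor gene N (-0.06). bs, a gene of the intervein cells, was the only one at an unadjusted p below 0.05 (0.32, edgeR adjusted p = 0.869). The 18 Polycomb group genes lay between -0.18 and 0.26 (median 0.04), with Sfmbt at 0.04, pho at 0.13, Kdm2 at -0.12 and Jarid2 at -0.06. The 17 Trithorax group genes and ASH1 partners lay between -0.16 and 0.18 (median 0.03), with kis at 0.03, mod(mdg4) at 0.06, dom at 0.03 and fs(1)h at -0.10. No patterning, Polycomb or Trithorax group gene was past 2-fold.

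In the SAGA and ATAC complexes, which acetylate histones, the 25 genes tested had a median of -0.01 (0.02 without the block) and Ada1-1 was the only one past 2-fold at an unadjusted p below 0.01. The acetyltransferase gene Gcn5 was at 89.9, 94.9 and 104.4 CPM in ΔBAH mutAT1 and 66.8, 95.4 and 96.0 CPM in ΔBAH (0.28). The scaffold gene Nipped-A was at 0.04, Spt20 at -0.07, wds at 0.00 and wda at 0.36. Of the 8 temporal and sexual identity regulators tested, chinmo stood apart, and Syp (0.02), ttk (0.01) and dsx (-0.02) lay near 0, as did br, which was at 617.8 to 1590 CPM in ΔBAH mutAT1 and 579.5 to 1721 CPM in ΔBAH.

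Among 23 genes of cell death, damage and survival (median -0.03), the matrix metalloprotease gene Mmp1 was at 72.3, 75.5 and 73.2 CPM in ΔBAH mutAT1 and 89.6, 104.8 and 98.4 CPM in ΔBAH. Its groups did not overlap (log2 fold change -0.37, edgeR adjusted p = 0.37), while the pro-apoptotic hid (0.18), the inhibitor Diap1 (0.09), the caspase gene Drice (0.13) and kay (-0.16) overlapped. Over the 23 genes, 12 fitted values were negative and 11 positive, from -1.49 to 0.58. The 18 ecdysone response genes had a median of -0.06, with 11 negative and 7 positive fitted values, from -1.57 to 0.37. Eip75B was at 0.05, ImpE1 at 0.11 and ImpE2 at 0.37. The 9 genes of the 42E tetraspanin cluster had a median of 0.04, with Tsp42Ee at 0.05, Tsp42Ef at 0.12, Tsp42Ea at 0.10 and Tsp42Ei at -0.24 beside Tsp42Ej.

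**Figure D5:**
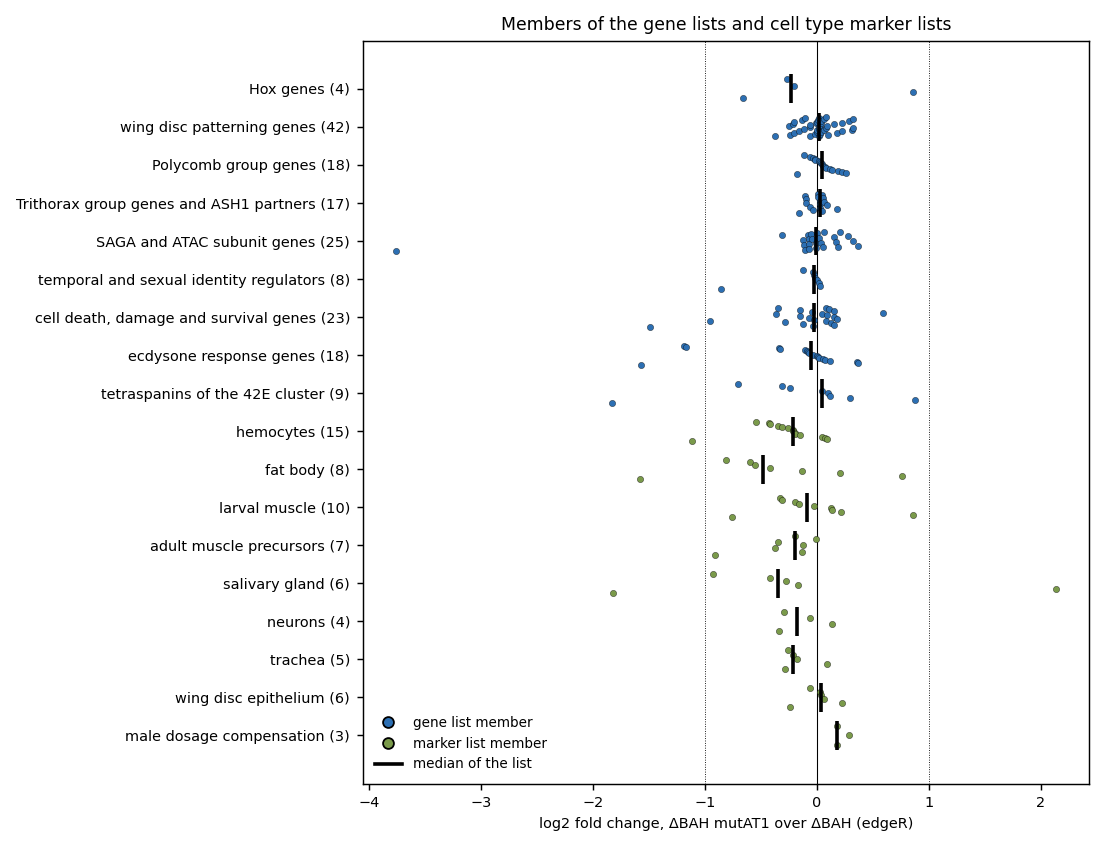
Log2 fold change of ΔBAH mutAT1 over ΔBAH for every tested member of 9 regulator lists (blue) and 9 marker lists (green), with the number tested in brackets; bars are medians and dotted lines 2-fold. Medians of the regulator lists lie between -0.24 and 0.04, and Ada1-1 is the point near -3.76.

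Markers of other cells in or on the disc did not pass the test either. At an unadjusted edgeR p below 0.05 were 3 of 7 adult muscle precursor, 2 of 15 hemocyte and 2 of 5 trachea markers. All of these had lower fitted values in ΔBAH mutAT1, and the other marker lists had none. In bulk discs, fewer cells of a type and less RNA per cell cannot be told apart. Of the 15 hemocyte markers tested 12 had lower fitted values in ΔBAH mutAT1 (median -0.22), and the summed level of the 17 listed was 892.5 to 974.5 CPM in ΔBAH mutAT1 and 827.4 to 1124 CPM in ΔBAH. ush was at -0.32, Col4a1 at -0.22, vkg at -0.22 and Ppn at 0.09, beside eater. The 7 markers of adult muscle precursors, the myoblasts carried by the disc, all had lower fitted values (median -0.20), with twi at -0.38, stumps at -0.20, htl at -0.01 and Him at -0.91. Mef2, the myogenic factor, was at 65.9, 73.8 and 65.9 CPM in ΔBAH mutAT1 and 82.9 to 94.7 CPM in ΔBAH, without overlap (-0.35, edgeR adjusted p = 0.476). Their sum was 208.8 to 239.9 CPM in ΔBAH mutAT1 and 249 to 310.3 CPM in ΔBAH, again without overlap. Whether this has a part in any result above was not tested.

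Fat body markers summed to 27.9 to 272.8 CPM in ΔBAH mutAT1 and 48.3 to 180.1 CPM in ΔBAH (median log2 fold change of 8 markers -0.49, and 0.78 without the library block). Of the 8, 6 had negative and 2 positive fitted values, from -1.58 to 0.76, with Fbp1 at -1.58, Lsp2 at -0.55, Lsp1beta at -0.42 and Lsp1gamma at -0.14, and the highest sum was in ΔBAH mutAT1 replicate 1. The median was -0.09 for larval muscle (0.10 without the block), where 6 of 10 markers had negative and 4 positive values, from -0.76 to 0.85, with sls at -0.31, Act57B at -0.19, TpnC73F at -0.16 and Mlc2 at -0.03, and it was -0.18 for neurons, with futsch at -0.34, elav at -0.07, Syt1 at -0.29 and nSyb at 0.14. Salivary gland markers summed to at most 10.4 CPM in ΔBAH mutAT1 and 23.2 CPM in ΔBAH, with Sgs3, Sgs4, Sgs5 and Sgs7 at -0.42, -0.93, -0.17 and -0.28. Of the 6 salivary gland markers tested, 5 had negative fitted values and 1 a positive one, from -1.82 to 2.14. For trachea the median was -0.21, with verm at -0.29, serp at -0.21, Gasp at -0.18 and vvl at 0.09, and for the disc epithelium it was 0.03 (-0.12 without the block), with vg at 0.03, nub at 0.23, ap at 0.04 and sd at -0.06. The male dosage compensation RNAs lncRNA:roX1 and lncRNA:roX2 and msl-2 were at 0.29, 0.18 and 0.18, with a summed level of 530 to 1063 CPM in ΔBAH mutAT1 and 568.6 to 717.4 CPM in ΔBAH, with overlapping groups.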

How the data were processed

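According to the labels and the study's methods, the authors sequenced single-end reads of poly(A) RNA from 3 independent RNA preparations per genotype on an Illumina HiSeq, aligned them with TopHat2 (2.0.9) to dm3 and deposited whole-number counts per gene made with HTSeq (0.5.4p3), without normalization. P-values of the main fit measure the spread between preparations that is left after library block. It was estimated over all genotypes together, with 6 residual degrees of freedom, and spread that goes with the block is not in it. The study says that the samples were sequenced in 3 runs. Strand and the treatment of reads with several matches are not given in the sources used here. All 12 count columns were used, from 15083960 to 39180697 counts per library. Within ΔBAH mutAT1 and within ΔBAH no libraries were copies of each other, and other pairs were not checked for this.

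Of 14869 identifiers, 13524 were named and placed by BDGP6 and 274 more were named from the study's tables. Genes were kept by filterByExpr (minimum count 10), which removed 6523 and left 8346, and scaled by TMM. edgeR (4.0.16, R 4.3.3) was fitted with genotype and library block as terms, and log2 fold changes use a prior count of 0.125. Adjusted p of this fit are Benjamini-Hochberg values over all 8346 genes, and CPM are counts scaled to a common library size with TMM factors. The F statistic gave the standard error of each fold change. The study used voom and limma, and the terms of its model are not given in the sources used here. limma-voom (3.58.1) with and without block on all 12200 genes with a count (no filter on low counts), DESeq2 (1.42.0), RLE factors, no filter, no block, a replicate block, fewer libraries and each of the 6 libraries left out were alternatives. The scripts were tested on simulated data.

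Named are all genes at an adjusted p below 0.05, the 13 features from the study's text and gene list, ash1, and in each list the members past 2-fold at an unadjusted p below 0.01 and otherwise up to 4 with the highest mean level. Some list members at an unadjusted p below 0.05, and swi2, NT5E-2 and ry, were added after their values were seen. The main model, the members and the lists were chosen with earlier results of these data known. List names with no identifier in the table, and HBS1 and Cyp4g15, listed in error, were left out.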

Additional observations from a re-analysis of the deposited data

How the results depend on the processing

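The number of genes at an adjusted p below 0.05, higher and lower in ΔBAH mutAT1, was 6 and 9 in edgeR with library block and with RLE factors. It was 19 and 58 without the filter on low counts, 2 and 2 without the library block, 3 and 2 in the 6 libraries alone, 4 and 9 in blocks 2 and 3, 13 and 34 with DESeq2, 4 and 10 with limma-voom, run without the filter throughout, and 2 and 2 with limma-voom without block. Leaving out 1 library gave 2 to 4 higher and 1 to 9 lower. Past 2-fold at an unadjusted p below 0.01, 11 genes were higher and 33 lower, against 21 and 50 without the filter, 13 and 15 without the block, 8 and 26 in the 6 libraries alone, 15 and 42 with DESeq2, 49 and 93 with limma-voom, 33 and 46 with limma-voom without block, and 7 to 19 higher and 22 to 43 lower with 1 library left out. The causes were not tested. Replicate numbers do not pair the lines: the correlations of same-numbered libraries' deviations were -0.00214, -0.403 and 0.439, whereas libraries of the same block correlated at 0.439 to 0.517. With a replicate block in place of the library block, 1 gene was higher and 1 lower at an adjusted p below 0.05, and 12 were higher and 15 lower past 2-fold. The log2 fold change of ash1, 0.15, was -0.0728 without the library block, -0.0347 with limma-voom without block and -0.0889 without ΔBAH replicate 1, within -0.0889 to 0.305 over the libraries left out. Of the 15 genes at an adjusted p below 0.05, 0 reversed in any setting, and 2 to 15 kept their call. Features listed by the study that passed in another setting were chinmo, Pde1c, CG15080 and Marf1 (without the filter and with DESeq2), Tsp42Ej (without the filter), and CG9903 (without the filter, with DESeq2 and without ΔBAH replicate 1, adjusted p 0.0483 in edgeR). Among list members, edgeR without the filter called chinmo, Tsp42Ej, Fbp1 and Him, 4 of 221 tested, beside 77 of all 12200 genes. Genes below about 1 CPM rest on few counts, and intervals on them cover counting error only.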
